A study of Drosophila melanogaster with 50 samples.

Results

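The data described here are whole-transcriptome arrays of adult Drosophila melanogaster females at normal gravity, compared between 5 d and 20 d of age. The members were the 8 of the series' 50 arrays that came from the large diameter centrifuge experiment and were kept at 1g, with every probe set other than the array's control probe sets included. All flies were Oregon R wild-type females, collected as imagoes at 22 degrees. Each age held 2 arrays of flies on the rotational control position of the centrifuge (1g-rot) and 2 arrays of flies kept outside it (1g outside), so that 4 arrays at 20 d were set against 4 arrays at 5 d. According to the labels, exposure lasted 3 to 5 days and began either with flies 2 days old or with flies 2 weeks old. The titles call the replicates biological, but no label gives the culture, the number of flies per array, their mating status, a batch or the time of day of collection. Age and any difference of cohort, batch or hour between the ages therefore cannot be told apart here, and p-values measure the spread between these arrays.

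Adult life of the fly begins with a phase in which the cuticle, the flight muscles and the fat stores mature and the ovary starts to produce eggs. As flies grow older, antimicrobial peptide genes are known to become more active, transcripts of mitochondrial energy metabolism to become scarcer, and egg production to decline. Neither age sampled here is an old fly, so the comparison runs from a young to a mature adult. Levels below are deposited log2 intensities, differences are 20 d minus 5 d on the log2 scale, and adjusted p-values are from limma after Benjamini-Hochberg correction over 18769 probe sets. Intensity reflects the probes as well as the transcript, so that levels were compared within a gene only.

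The arrays were alike in overall scale, with median levels of 5.36 to 5.48 and background levels of 4.1 to 4.37, where background is the level that 95% of the 50 plant control probe sets did not exceed. The median standard deviation within a group was 0.147 at 5 d and 0.142 at 20 d (n = 4 each). The labelled sex fitted the markers, since the yolk protein genes had median levels of 12.87 to 13.89 on every array, whereas the median levels of 27 seminal fluid and 29 testis genes (3.73 to 4.08 and 3.89 to 4.1) lay at or under background. A measure of RNA integrity moved with age. The difference between 3′ and 5′ control probe sets of eIF-4a was 1.0 to 1.2 at 5 d and 0.62 to 0.81 at 20 d, that of actin was 0.77 to 0.88 and 0.5 to 0.75, and only for GAPDH did the ages overlap (1.58 to 1.68 and 1.31 to 1.65). The part of this in the age differences was not tested. On the arrays at 2g the eIF-4a values were 1.0 to 1.3 at 5 d and 0.99 to 1.26 at 20 d.

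Of 18769 probe sets, 4851 (25.8%) passed an adjusted p of 0.05, with 2054 higher and 2797 lower at 20 d. Over 11982 genes, each represented by 1 probe set, 1623 (13.5%) were higher and 2356 (19.7%) were lower, with a median difference of −0.01. Of these, 1359 higher genes (11.3% of all) and 1997 lower genes (16.7%) had no overlap between the 4 arrays of each age. A difference of at least 1 on the log2 scale was reached by 374 higher and 277 lower genes, so that the falls were more numerous while the rises held more of the large differences. For ATPsyngamma, ND-19, SERCA, Cdk2, Gad1, GstS1, PGRP-LB, Akt, ImpL2, SREBP, Mvl, Fer1HCH, Fer2LCH, stv, vri, whd, Tl, regucalcin and CG12065, the probe set is of a type that may hybridize with related transcripts.  Among 54 gene lists with 1060 genes in all, 443 genes passed the test, and the shares of 13.5% and 19.7% are the background against which their counts are to be read. The plot of 30 lists shows where the counts lay far from these shares.

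**Figure D1:**
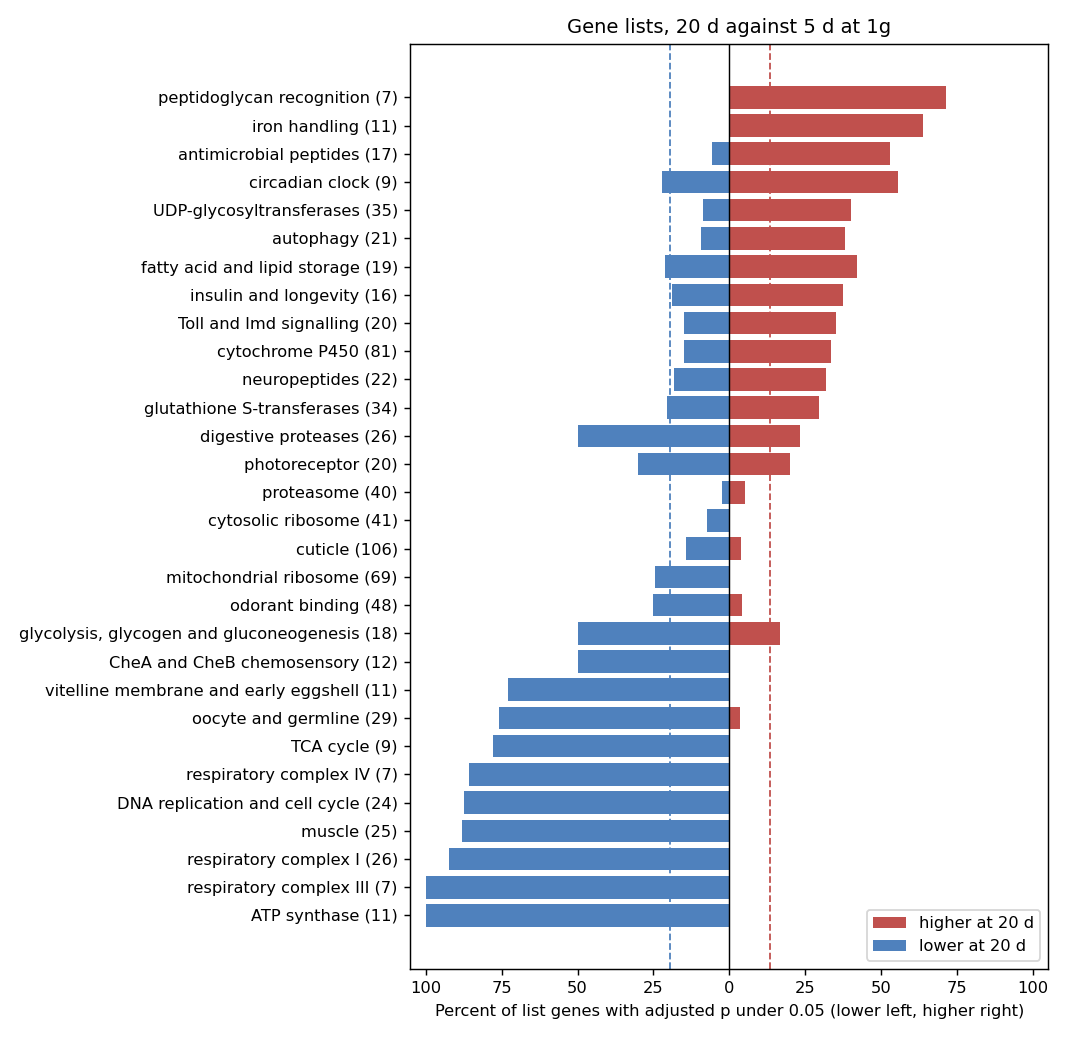
Percentage of the measured genes of 30 gene lists that passed the test as higher (to the right) or lower (to the left) at 20 d than at 5 d at 1g, with dashed lines at the shares over all 11982 genes (13.5% higher, 19.7% lower). Respiratory chain, ATP synthase, muscle, ovary and replication lists lie far to the left, and peptidoglycan recognition and antimicrobial peptide lists to the right.

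Many of the largest rises belonged to innate immunity, beside genes without an assigned role that are given below. Flies answer bacteria chiefly through the Imd and Toll pathways, in which peptidoglycan recognition proteins detect cell walls and NF-kB factors such as Relish switch on antimicrobial peptide genes, largely in the fat body. Of 17 antimicrobial peptide genes, 9 rose and 1 fell (median 0.44, against −0.01 over all genes). In RNA from adult flies, fewer cells of a type and less RNA per cell cannot be told apart, which holds for each gene group below.

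AttD, encoding an attacin, read 3.86 and 4.22 on the 5 d 1g-rot arrays, 7.95 and 4.16 on the 5 d outside arrays, 12.4 and 11.52 on the 20 d 1g-rot arrays and 11.68 and 11.29 on the 20 d outside arrays. The ages did not overlap, but replicate 1 of the 5 d outside arrays stood well above the other young arrays. AttD was above background on only that 1 of the 4 young arrays. The difference was 6.67 ± 1.09 (SE, adjusted p = 0.000271), and with values under background raised to it the rise was at least 96.8-fold. It was 5.73 with the other 5 d outside array left out, and at least 7.54 on the log2 scale without the high array, since the remaining young arrays gave only a bound. In the same order of arrays, DptB, a diptericin active against Gram-negative bacteria, read 6.49, 7.08, 11.32 and 8.04 at 5 d and 13.86, 12.88, 13.54 and 13.06 at 20 d. Its rise was 34.4-fold (5.1 ± 0.88, adjusted p = 0.000449), and again the 5 d outside replicate 1 was the highest young array. The infection-induced gene edin (54.0-fold), Mtk, an antifungal metchnikowin (15.2-fold), and Def, the defensin (9.56-fold), rose as well, with adjusted p-values of 0.000475, 0.00374 and 0.000119. Without the high young array, the differences were 6.59 for edin, 5.92 for DptB and 4.71 for Mtk, and without the other outside array they were 4.92, 4.28 and 3.14. Within the outside arrays alone, edin, DptB and Mtk no longer passed (4.5, 3.62 and 2.62, adjusted p = 0.0531, 0.0785 and 0.229). BomT2, a bomanin peptide of the Toll pathway, and IM33, an immune-induced peptide, had smaller rises of 2.53-fold and 1.56-fold.

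The drosomycin-like genes moved in both directions, with 2 of 6 higher and 2 lower. Drsl2 read 4.38, 4.52, 4.3 and 4.43 at 5 d, close to background, and 6.62, 7.11, 8.43 and 7.82 at 20 d, an 8.5-fold rise (adjusted p = 4.53e-08). Drsl4 read 8.69, 9.15, 9.87 and 9.7 at 5 d and 7.15, 7.09, 6.69 and 7.23 at 20 d, and fell by 2.31 ± 0.21 (adjusted p = 7.99e-07). All arrays of one age lay on one side for both genes, so that members of the same small family separated the ages in opposite directions. Drsl3, above background on 2 of the 4 young arrays, rose at least 2.66-fold, and Drsl5 fell by 1.49 on the log2 scale.

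**Figure D2:**
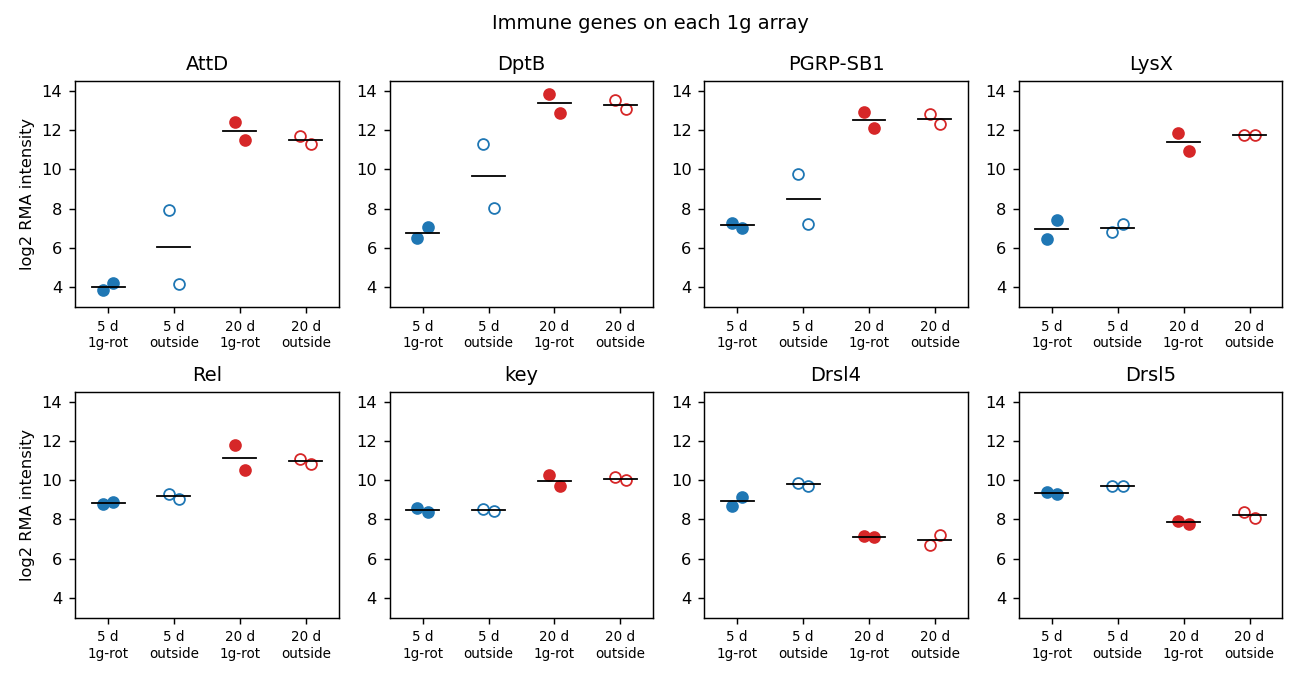
Log2 intensity of AttD, DptB, PGRP-SB1, LysX, Rel, key, Drsl4 and Drsl5 on each of the 8 arrays at 1g. Filled dots are 1g-rot, open dots are 1g outside, and each line is the mean of the 2 arrays of a position at an age. The first 6 genes are higher on every 20 d array than on any 5 d array, Drsl4 and Drsl5 are lower, and 1 open dot at 5 d (7.95 for AttD, 9.77 for PGRP-SB1) lies apart from the other young arrays.

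Genes for recognition proteins, and some for signalling, rose as well. Of 7 peptidoglycan recognition genes, 5 rose and none fell (median 1.93). PGRP-SB1, a secreted enzyme that cleaves peptidoglycan, read 7.29, 7.04, 9.77 and 7.24 at 5 d and 12.9, 12.09, 12.8 and 12.31 at 20 d, which separated the ages by 25.8-fold (4.69 ± 0.65, adjusted p = 6.84e-05). The rise was 5.32 without the high young array and 4.06 without the other 5 d outside array. PGRP-LB and PGRP-SC2, amidases that dampen the response, rose 4.19-fold and 3.82-fold, and PGRP-LF, an inhibitor of the pathway at the cell surface, rose 4.03-fold. PGRP-LA rose 2.3-fold.

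Among 20 Toll and Imd signalling genes, 7 rose and 3 fell, with a median of 0.11 that ran from 0.03 (without the 5 d 1g-rot replicate 2) to 0.18 (without the 5 d 1g-rot replicate 1) and was 0.07 or 0.06 without replicate 1 of either 20 d group. Rel, the NF-kB factor of the Imd pathway, read 8.77, 8.89, 9.32 and 9.06 at 5 d and 11.78, 10.52, 11.09 and 10.81 at 20 d (4.11-fold, adjusted p = 5.42e-06). The gene key, which encodes the regulatory subunit of the kinase that activates Relish, read 8.59, 8.4, 8.54 and 8.45 and then 10.26, 9.68, 10.17 and 9.99 (2.89-fold, adjusted p = 8.36e-08). For Rel the 5 d outside replicate 1 was again the highest young array, at 9.32 against 8.77 to 9.06 on the others, and for key it was not. Both genes were separated by age on every array. The inhibitor pirk rose 4.22-fold and the adaptor imd 1.42-fold, although imd did not pass within 1g-rot alone (0.39). Among the falls were the Toll receptor Tl, by 0.96, and its ligand spz, by 0.53 (adjusted p = 0.000464 and 0.00152). Outside the centrifuge alone, Tl and spz did not pass (−0.56 and −0.47), and the other probe set of Tl did not repeat the call.

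Further defence genes were among the largest rises. LysX, a lysozyme, read 6.48, 7.43, 6.83 and 7.24 at 5 d and 11.84, 10.94, 11.74 and 11.73 at 20 d, a 23.7-fold rise (adjusted p = 7.81e-08), whereas the other 2 measured lysozyme genes did not pass. Nazo and Srg2, which are known as targets of the Sting pathway of antiviral defence, rose 14.3-fold and 20.6-fold (adjusted p = 1.33e-08 and 7.47e-07). The complement-like gene Tep4 rose 1.66-fold, although it did not pass within the outside arrays alone (0.56). None of 5 Turandot genes, humoral stress factors, passed. Genes without an assigned role stood beside them: CG43064 went from 4.54, 5.05, 5.32 and 4.82 to 9.54, 8.98, 9.35 and 9.22, and CG8353 from 6.81, 7.11, 6.68 and 6.65 to 11.47, 11.07, 11.44 and 11.02. These were among the most uniform of the large rises, 20.3-fold with an adjusted p of 1.74e-10 and 21.7-fold with an adjusted p of 2.43e-10. CG14499 (28-fold), lncRNA:CR32368 (27.1-fold), CG13324 (18.1-fold) and CG4269 (13.7-fold) rose likewise, as did Acbp6, an acyl-CoA binding protein gene (16-fold). Among 11 hemocyte genes, 2 rose and 1 fell. The clotting factor gene Hml rose 2.05-fold and the phagocytic receptor gene NimC1 fell by 1.06, both without overlap.

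Transcripts for energy production in mitochondria fell as a block. Of 54 nuclear genes for subunits of the 5 oxidative phosphorylation complexes, 51 fell, none rose, and 50 of the falls were without overlap between the ages, a pattern that 16.7% of all genes had. The median difference was −0.71. By complex, 24 of 26 genes fell for complex I (NADH dehydrogenase, median −0.66), 3 of 3 for complex II (succinate dehydrogenase, −0.88), 7 of 7 for complex III (−0.62), 6 of 7 for complex IV (cytochrome c oxidase, −0.61) and 11 of 11 for ATP synthase (−0.81).

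ND-75, the largest subunit of complex I, read 10.23, 10.29, 10.57 and 10.47 at 5 d and 9.6, 9.4, 9.29 and 9.21 at 20 d, a fall by 1.01 ± 0.09 (adjusted p = 6.27e-07). SdhB, the iron-sulfur subunit of complex II, read 11.18, 11.35, 11.41 and 11.41 and then 10.2, 9.99, 10.1 and 9.94, and fell by 1.28 ± 0.08 (adjusted p = 1.99e-08). Both genes had narrow groups with a clear gap between the ages. ATPsynB, of the stalk of ATP synthase, went from 12.88, 12.84, 13.12 and 13.04 to 11.85, 11.82, 11.55 and 11.7 (−1.24 ± 0.08, adjusted p = 2.48e-08), and ATPsynbeta, the catalytic subunit, fell by 0.81. For these genes both the 1g-rot and the outside arrays were lower at 20 d. List medians were less negative within 1g-rot than outside, at −0.52 against −0.83 for complex I and −0.68 against −0.99 for ATP synthase. For complex III they were −0.5 and −0.78. A difference of these medians between positions was not tested. The deepest fall in complex I was that of ND-B8, at 7.48, 7.34, 8.25 and 7.79 and then 5.18, 5.34, 4.88 and 5.01 (−2.61, adjusted p = 1.65e-08).

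Complex III members UQCR-14 and RFeSP, the Rieske iron-sulfur protein, fell by 0.85 and 0.71, and COX5A and COX7C of complex IV by 0.73 and 0.75. For RFeSP and COX7C, another probe set of the gene did not repeat the call. The exception in complex IV was COX7A, at 12.13, 12.02, 12.08 and 12.06 and then 12.05, 12.18, 12 and 11.98, a difference of −0.02 ± 0.07 (adjusted p = 0.885) with overlapping ages. Its paralogue COX7AL2 read 12.01, 11.95, 12.28 and 12.29 at 5 d and 9.4, 9.19, 9.24 and 9.38 at 20 d, a difference of −2.83 ± 0.15 (adjusted p = 3.08e-09), although its probe set may hybridize with related transcripts. COX7AL2 came from a list of 22 respiratory chain paralogues best known from testis, of which 2 fell and 20 did not pass.

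Transcripts of enzymes that feed the chain fell too. In the tricarboxylic acid cycle, 7 of 9 genes fell (median −0.7), among them the isocitrate dehydrogenase subunits Idh3g (−1.52), Idh3b (−1.51) and Idh3a (−1.12) and the aconitase mAcon1 (−1.11), all with adjusted p-values at or below 1.82e-07. Idh3g read 11.13, 11.23, 11.56 and 11.49 at 5 d and 9.86, 9.86, 9.81 and 9.8 at 20 d, so that the older arrays differed among themselves by hundredths. The mitochondrial ribosome moved far less. Of its 69 genes 17 fell, a share near the 19.7% of all genes, with a median of −0.17, and mRpL55 (−0.68) and mRpL12 (−0.61) had the clearest falls. Cytosolic ribosome genes showed no shift, with 3 of 41 lower and a median of 0.01.

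**Figure D3:**
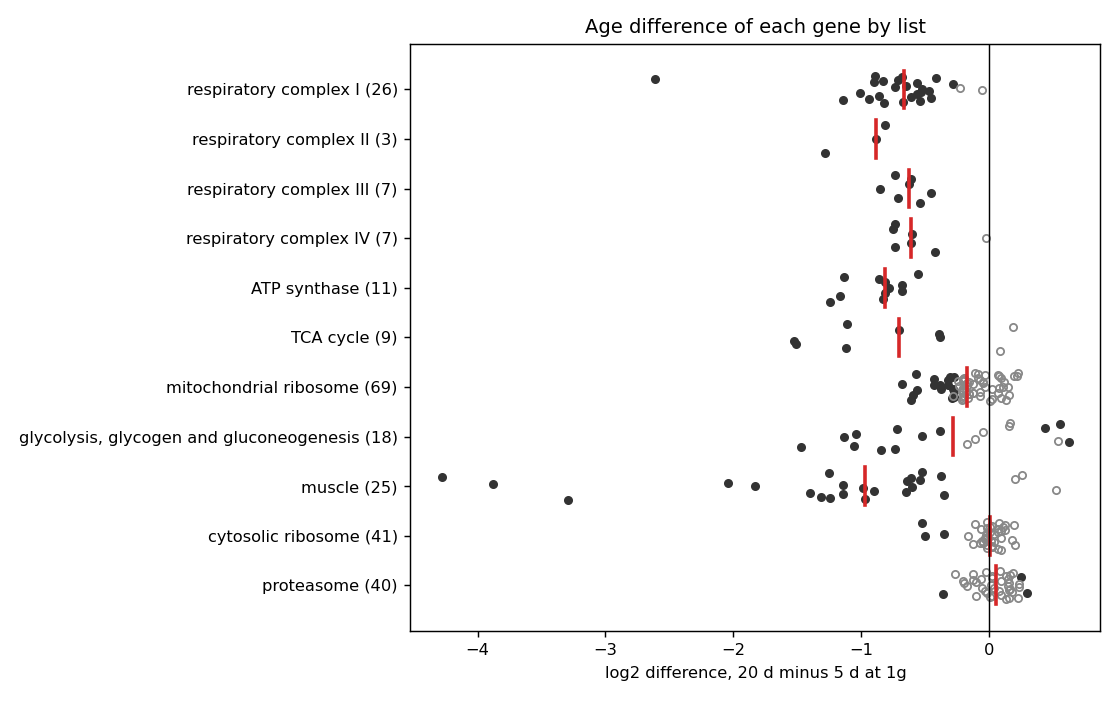
Age difference (20 d minus 5 d, log2) of each gene of 11 lists, with filled dots for genes that passed the test, open dots for those that did not and a red bar at the list's median. Complexes I to IV, ATP synthase, the TCA cycle and muscle lie almost wholly below 0 (medians from −0.61 to −0.97), while the cytosolic ribosome is centred at 0.01 and the mitochondrial ribosome at −0.17.

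The contractile apparatus fell together with these genes, and by more. Of 25 muscle genes, 22 fell and none rose (median −0.97), and the median level of the list was 10.9 to 11.33 on the 5 d arrays and 9.73 to 10.05 on the 20 d arrays. The flight muscles hold very many mitochondria. How far the lower muscle RNA accounts for the lower respiratory RNA was not tested.

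Flightin (fln), a thick filament protein of the indirect flight muscle, read 11.7, 11.95, 12.35 and 12.16 at 5 d and 7.61, 7.94, 7.43 and 8.05 at 20 d. The gap between the ages was far wider than either group, at −4.28 ± 0.16 or 19.5-fold (adjusted p = 1.4e-10). TpnC4, a troponin C of the flight muscle, read 11.86, 11.64, 12.06 and 11.85 and then 7.95, 8.14, 7.56 and 8.23, which made it 14.7-fold lower (adjusted p = 4.59e-08). Act79B, an actin of adult muscles that include the jump muscle, read 12.31, 12.38, 12.69 and 12.69 and then 9.38, 9.22, 9.09 and 9.23, or 9.76-fold lower (adjusted p = 2.05e-10). These genes lie within structural protein groups, and calcium handling genes shifted alongside. Scp1, a sarcoplasmic calcium-binding protein, fell by 3.21 and the calcium pump SERCA by 1.83. TpnC41C fell by 2.04 and Actn, alpha-actinin, by 1.31.

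Transcripts of several enzymes of sugar breakdown were also lower. Of 18 genes of glycolysis, glycogen and gluconeogenesis, 9 fell and 3 rose (median −0.27). Gapdh1 read 13.21, 13.14, 13.33 and 13.3 at 5 d and 11.72, 11.98, 11.6 and 11.81 at 20 d (−1.47 ± 0.09, adjusted p = 9.28e-09), and Pfk, the phosphofructokinase that commits sugar to glycolysis, fell by 1.13. Pgk, Gpdh1 and Eno fell by 1.04, 1.05 and 0.73, although other probe sets of Gpdh1 differed and Eno's may hybridize with other transcripts.

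The ovary gave the second large group of falls. In a female, germline cells divide and deposit maternal RNA into the oocyte while follicle cells secrete, in sequence, the vitelline membrane and then the chorion. Of 29 oocyte and germline genes, 22 fell and 1 rose (median −0.92), and of 24 genes of DNA replication and the cell cycle, 21 fell and none rose (median −0.88). The median level of the oocyte list was 9.08 to 9.27 at 5 d and 8.16 to 8.61 at 20 d, without overlap. With the 20 d 1g-rot replicate 1 left out, its median difference was −0.68.

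The translational regulator orb, which acts in oocyte polarity, read 10.63, 10.14, 10.25 and 10.35 at 5 d and 8.63, 8.86, 9.03 and 9.43 at 20 d (−1.35 ± 0.18, adjusted p = 3.51e-05). The cell cycle regulators of the egg gnu and png fell by 1.06 and 1.24, and aub, of the piRNA pathway that silences transposons in the germline, by 0.8. All 4 genes were lower on every older array. The RNA-binding protein gene stau fell by 0.92. The only rise in the list was that of grk, the EGF receptor ligand that patterns the egg, at 8.19, 7.8, 8.24 and 8.32 and then 9.11, 8.84, 9.06 and 8.95 (0.85 ± 0.16, adjusted p = 0.000822). Among replication genes, Mcm2, a subunit of the replicative helicase, fell by 0.9, PCNA, the polymerase clamp, by 0.82, RnrL, of ribonucleotide reductase, by 0.86, the kinase Cdk2 by 1.23 and the checkpoint kinase Bub1 by 0.56, with adjusted p-values from 0.000306 to 0.000689. Cdk2 did not pass within the outside arrays alone (−0.97).

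Eggshell genes were much more variable between arrays. Of 11 genes of the vitelline membrane and early eggshell, 8 fell (median −1.97), and the list's median level was 8.8 to 9.42 at 5 d and 5.64 to 8.19 at 20 d, the lowest value being that of 1g-rot replicate 1. Vm26Aa read 12.68, 13.34, 12.08 and 12.26 at 5 d and 9.62, 11.27, 10.44 and 11.17 at 20 d, and Vm32E read 9.57, 10.79, 9.03 and 8.92 and then 4.63, 8.05, 7.05 and 7.08. Each separated the ages, with the 20 d 1g-rot replicate 1 lowest, at −1.97 (adjusted p = 0.0132) and −2.88 (adjusted p = 0.0182). Leaving out that array ended the calls of Vm26Aa, Vm32E (−2.02) and psd, and psd also failed without the 5 d 1g-rot replicate 2 and Vm26Aa without the 20 d outside replicate 1. Vm32E was −3.73 without the 20 d 1g-rot replicate 2, and its call was also lost without the 20 d outside replicate 1 (−2.87) or the 5 d 1g-rot replicate 2 (−2.57). Within the outside arrays alone, Vm26Aa, Vm32E and psd did not pass (−1.36, −1.91 and −1.31). The early eggshell genes fs(1)N and clos fell by 1.22 and 0.99 with narrower groups.

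None of 7 chorion genes passed, although their median difference was −1.47. Cp36, a major chorion protein, read 10.82, 12.26, 10.94 and 12.81 at 5 d and 7.73, 12, 8.56 and 12.29 at 20 d, and Cp19, expressed late in eggshell formation, read 8.09, 10.58, 12 and 12.83 and then 5.56, 6.11, 8.66 and 12.14. Replicates of a single group thus differed by over 3 on the log2 scale, and the ages overlapped (adjusted p = 0.387 and 0.0534). Cp19 passed with median centring, the filter on dim probe sets, an intensity trend, the 1g arrays alone or a replicate block. It also passed without the 20 d outside replicate 2 (−3.63) or the 5 d 1g-rot replicate 1 (−3.38). Cp36 passed with the replicate block. The list's median moved to −0.49 without the 20 d 1g-rot replicate 1, to −0.57 without the 20 d outside replicate 1, to −0.85 without the 5 d outside replicate 2 and to −0.96 without the 5 d 1g-rot replicate 2, and to −2.52 and −2.37 without the other 20 d 1g-rot or outside array. Yolk protein genes, made by fat body and follicle cells, had high levels at both ages. Yp1 and Yp2 did not pass (−0.22 and −0.24, adjusted p = 0.216 and 0.417), but both passed without the 20 d 1g-rot replicate 2 (−0.36 and −0.49) and were −0.07 and 0.01 without the 20 d 1g-rot replicate 1. Yp3 read 13.82, 13.83, 13.69 and 13.79 at 5 d and 12.48, 13.5, 13.42 and 13.69 at 20 d, with an adjusted p of 0.0322. The 20 d 1g-rot replicate 1 was the lowest array for all 3 yolk genes, without it Yp3 differed by −0.26, and the call of Yp3 was lost on leaving out any of the 8 arrays other than the 20 d 1g-rot replicate 2 and the 20 d outside replicate 2. Send2, a protease gene of the spermatheca, rose 2.48-fold.

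**Figure D4:**
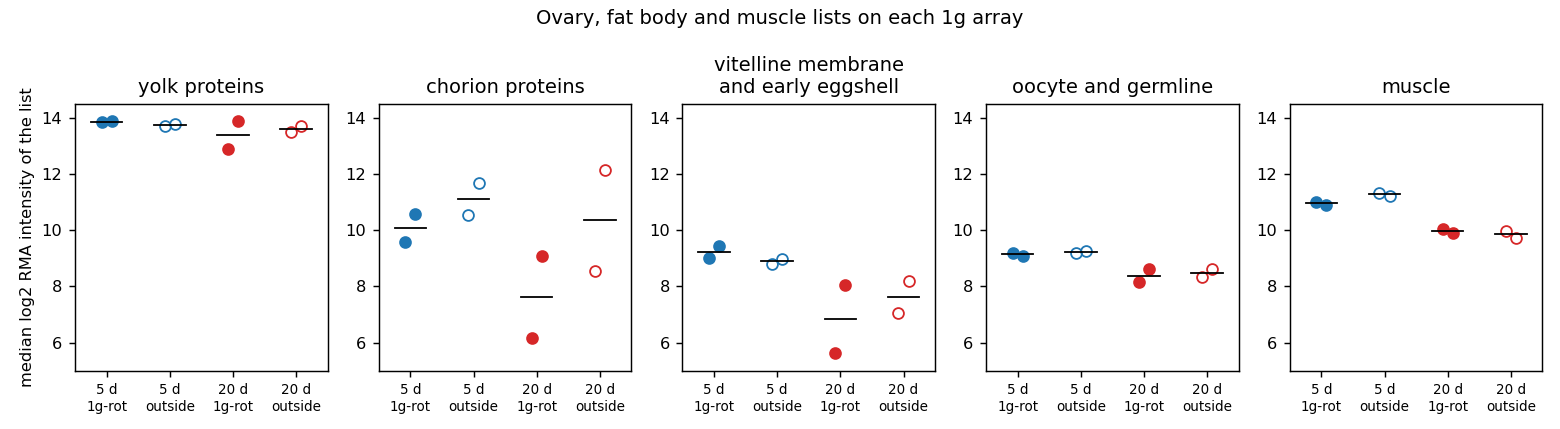
Median log2 intensity of the yolk, chorion, vitelline and early eggshell, oocyte and germline, and muscle lists on each of the 8 arrays, with filled dots for 1g-rot and open dots for 1g outside. The oocyte (9.08 to 9.27 against 8.16 to 8.61) and muscle lists separate the ages, while the chorion list runs from 6.18 to 12.14 at 20 d and covers the young arrays.

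Some of the largest falls were in genes of the body surface and the sense organs. The cuticle list as a whole held fewer calls than all genes (13.5% higher, 19.7% lower), with 15 of 106 genes lower and 4 higher. Its median difference was −0.01. The list's median level was 4.86 to 5.13 at 5 d and 4.79 to 5.04 at 20 d, not far above background. Some members nevertheless fell steeply. Cpr49Ae read 10.67, 11.12, 10.88 and 10.98 at 5 d and 6.94, 7.51, 7.73 and 7.59 at 20 d (11.1-fold lower, adjusted p = 7.27e-09). Cpr100A (8.85-fold) and Cpr65Au (4.72-fold) were also lower, as was Cpr92F, by at least 7.42-fold since 1 of its 4 older arrays was above background, and Cpr66D was 2.38-fold higher (adjusted p = 1.76e-05). CG7203, without an assigned role here, fell by 5.55 ± 0.25, the largest fall named, from 11.82, 12.3, 12.09 and 12.27 to 6.39, 6.87, 6.63 and 6.39 (adjusted p = 6.31e-10), and CG7214, above background on 2 of the 4 older arrays, fell by at least 4.75.

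Nplp3, annotated as a neuropeptide-like precursor, read 11.37, 11.68, 11.7 and 11.78 at 5 d and 6.52, 6.29, 6.37 and 6.72 at 20 d (−5.16 ± 0.17, adjusted p = 1.09e-10), or 35.7-fold lower with tight groups. In the neuropeptide list, 4 of 22 fell and 7 rose. Among the rises were the peptide genes CCHa1 (2.92-fold), AstC, allatostatin C (2.52-fold), NPF (1.48-fold) and Lk, leucokinin (1.53-fold), and the hormone subunit gene Burs (1.52-fold). NPF and Lk did not pass within the outside arrays and Burs did not within 1g-rot.

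Of 20 photoreceptor genes, 6 fell and 4 rose (median −0.02). Retinin, a protein of the corneal lens, read 10.43, 10.91, 11.04 and 10.75 at 5 d and 6.75, 7.04, 6.35 and 6.98 at 20 d (16-fold lower, adjusted p = 1.4e-10). The carotenoid genes ninaD, a scavenger receptor, and ninaB, the oxygenase that makes the chromophore precursor, fell by 2.58 and 0.64. In the other direction, Arr2, an arrestin that quenches activated rhodopsin, rose 1.78-fold (adjusted p = 0.000647), though not within the outside arrays alone (0.54). Neuronal genes as a group moved little, with 2 of 29 higher and 2 lower (median −0.08). Csp, for a synaptic vesicle chaperone, was 1.53-fold higher and Gad1, which makes GABA, 1.46-fold lower. Within 1g-rot alone, Gad1 did not pass (−0.26). The list's median level overlapped between the ages (6.25 to 6.69 and 6.35 to 6.81). In chemosensation, 6 of 12 CheA and CheB genes fell and none rose, with CheA7a (−2.14) and CheA75a (−1.48) in front, and of 48 odorant binding protein genes 12 fell and 2 rose. Obp99b and Obp56e fell by 1.72 and 1.09, and Obp18a rose 1.75-fold.

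In the gut, single enzymes changed strongly in both directions. Of 26 digestive protease genes, 13 fell and 6 rose (median −0.45, or −0.23 without the 20 d 1g-rot replicate 1). Jon65Aii, a serine protease, read 11.16, 10.8, 10.48 and 10.81 at 5 d and 6.34, 8.01, 6.66 and 7.08 at 20 d (13.8-fold lower, adjusted p = 9.33e-08), and Jon74E read 12.3, 12.44, 12.72 and 12.62 and then 10.52, 10.65, 10.82 and 10.87 (3.49-fold lower, adjusted p = 9.37e-09). Jon65Ai and betaTry, a trypsin, were 4.62-fold and 1.83-fold lower. The trypsin genes etaTry and kappaTry were instead 3.39-fold and 2.21-fold higher. The lipase gene mag, active in the digestion of dietary fat, went from 10.79, 11.14, 10.98 and 11.05 to 5.95, 7.39, 6.62 and 6.62 (20.3-fold lower, adjusted p = 3.67e-09). CG17192 (31.4-fold), CG12998 (11.8-fold) and CG13026 (9.16-fold), to which no role or tissue is assigned here, were lower as well. Among 11 maltases and amylases, 3 rose and 3 fell, such as Mal-A1 (2.28-fold higher, with ages that overlapped and no call within the outside arrays) and Mal-A3 (2.63-fold lower).

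Genes of detoxification and metal handling leaned towards higher levels. Of 81 cytochrome P450 genes, 27 rose and 12 fell (median 0.11, or 0.19 without the 20 d 1g-rot replicate 2), and of 35 UDP-glycosyltransferase genes, 14 rose and 3 fell (median 0.25). The latter median was 0.14 to 0.15 when either 20 d outside array or the 20 d 1g-rot replicate 1 was left out. Cyp304a1 read 4.52, 4.29, 4.44 and 4.39 at 5 d, near background, and 6.39, 6.29, 6.57 and 7.35 at 20 d, a 4.72-fold rise (adjusted p = 1.15e-07). Cyp4p3 (4.16-fold), Cyp28a5 (2.41-fold), Cyp9b2 (2.27-fold), Ugt36A1 (2.68-fold) and Ugt305A1 (2.53-fold) rose as well. Glutathione S-transferases split, with 10 of 34 higher, such as GstD9 (2.24-fold), and 7 lower, such as GstS1 (3.06-fold) and GstO1 (1.82-fold).

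Of 11 iron handling genes, 7 rose and none fell (median 0.48). The ferritin subunits Fer2LCH and Fer1HCH, which store iron, rose 1.69-fold and 1.52-fold. Fer2LCH read 12.62, 12.77, 12.96 and 12.86 and then 13.54, 13.52, 13.71 and 13.48. The ferroxidase gene Mco1 and the metal importer gene Mvl rose 1.97-fold and 1.68-fold. The metallothionein genes MtnD and MtnA, whose products bind heavy metals, rose 4.18-fold and 1.84-fold, and MtnC fell by 0.79, although not within 1g-rot alone. Of 19 fatty acid and fat storage genes, 8 were higher and 4 lower. The fatty acid synthase genes FASN3 and FASN2 rose 2.37-fold and 1.62-fold, the lipogenic factor SREBP 1.49-fold and the triglyceride lipase gene bmm 1.4-fold, while whd, the carnitine palmitoyltransferase that brings fatty acids into mitochondria, and Lsd-2, a lipid droplet protein, fell by 0.46 and 0.56. FASN2 and bmm did not pass within the outside arrays. Npc2e, of the sterol binding family, rose 9.56-fold, from 7.23, 7.08, 7.41 and 7.5 to 10.88, 10.14, 10.92 and 10.31, and Npc2g rose 1.44-fold with overlapping ages.

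Stress and regulatory genes changed in both directions. Of 10 chaperone genes 4 fell and 1 rose. Hsp26, a small heat shock protein often followed in ageing flies, fell by 0.85 with ages that overlapped, Hsc70-1 fell by 1.78 with 1 of its other probe sets not called, and the co-chaperone gene stv rose 1.89-fold. Of 7 antioxidant enzyme genes 3 fell and 2 rose. Sod2, the mitochondrial superoxide dismutase, fell by 0.74, and Cat, catalase, and Irc, an immune-regulated catalase, rose 1.49-fold and 2.6-fold. Cat did not pass within the outside arrays.

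Of 21 autophagy genes, 8 rose and 2 fell (median 0.23, or 0.11 without the 5 d 1g-rot replicate 2), with Atg18b 2.18-fold and ref(2)P, the cargo receptor that is itself degraded by autophagy, 1.88-fold higher. In insulin signalling, 6 of 16 genes rose and 3 fell. The kinase Akt rose 2.1-fold, ImpL2, a secreted antagonist of insulin-like peptides, 1.69-fold (not within the outside arrays), and raptor, of the TOR complex, fell by 0.56. Kr-h1, a transcription factor that responds to juvenile hormone, rose 1.94-fold and the nuclear receptor gene ftz-f1 fell by 1.09, although not within the outside arrays. Of 9 clock genes, 5 rose and 2 fell. The repressor gene vri read 7.66, 7.56, 8.28 and 8.09 at 5 d and 9.39, 8.58, 9.44 and 9.34 at 20 d (2.45-fold, adjusted p = 1.09e-05), and per rose 1.44-fold. For tim (1.3-fold) the ages overlapped, and its call was lost without any 1 of 5 arrays, namely replicate 1 of each of the 4 groups and the 5 d outside replicate 2. It was also lost with only the 1g arrays, with the replicate block and within the outside arrays alone (0.13). As these transcripts cycle over the day and no hour is given, age and hour cannot be told apart for them.

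The genes named for senescence were lower. The gene regucalcin, for a calcium-binding protein, read 10.79, 10.48, 10.67 and 10.54 at 5 d and 9.28, 9.73, 9.96 and 9.9 at 20 d (−0.9 ± 0.12, adjusted p = 4.99e-05). The related smp-30 fell by 0.65 (adjusted p = 0.00981), a call that was lost without the 20 d 1g-rot replicate 1 or the 5 d outside replicate 1. Nor did smp-30 pass within either position alone (−0.55 in 1g-rot and −0.75 outside). For both genes another probe set did not repeat the fall, which also held for whd and ftz-f1 above. Fst, known as a cold-induced gene, did not pass (0.99 ± 0.46, adjusted p = 0.136) despite higher values on each older array (8.86, 8.28, 8.05 and 7.78 against 7.11, 7.48, 7.38 and 7.02), and it passed when the 1g arrays were fitted without those at 2g. The proteasome, with 2 of 40 genes higher and 1 lower, and the apoptosis and DNA damage list, with 2 of 8 lower, had medians of 0.06 and 0.04.

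Whether the age difference depended on the position of the 1g flies was asked by an interaction of age with rotation. No probe set passed by limma (lowest adjusted p = 0.216), while 739 had an unadjusted p under 0.05. Within 1g-rot alone 1543 probe sets were higher and 1920 lower at 20 d, and within the outside arrays alone 934 and 1152. The difference in these counts was not itself tested, and each rests on 2 arrays per age. Of the 3979 genes called over all 8 arrays, 3969 (99.7%) had the same sign in both positions, although the pooled call itself draws on both.

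The 6 genes with the smallest interaction p are those for which the positions differed most clearly in their age difference, and in each of them the positions did not overlap at 5 d. CG13679 read 6.49 and 6.07 at 5 d on 1g-rot and 4.43 and 4.5 outside, and 4.63, 5.18, 5.23 and 4.69 at 20 d. TwdlB, a cuticle protein of the Tweedle family, read 6.74 and 6.21 against 3.7 and 3.42 at 5 d, and 3.98, 5.15, 4.85 and 3.73 at 20 d. CG14565 read 4.41 and 4.97 against 3.74 and 3.72 at 5 d and 3.67, 3.7, 3.94 and 3.71 at 20 d, where it was under background. In these 3 genes 1g-rot was the higher position at 5 d. CG31041 read 7.97 and 7.9 against 6.94 and 6.82 at 5 d, and 8.33, 8.51, 8.85 and 8.99 at 20 d. The muscle gene Zasp67, of the Z-disc, and Nplp4 had the opposite order, with 4.66 and 4.4 against 5.23 and 5.43, and 6.04 and 6.43 against 6.96 and 6.74, at 5 d. At 20 d, Zasp67 (4.16, 4.19, 3.77 and 3.97) lay under background on all arrays, so that its fall is at least 1.6-fold, and Nplp4 read 6.55, 6.08, 5.7 and 5.68. The pooled age differences of CG13679 (−0.44), CG14565 (−0.46) and Nplp4 (−0.54) passed the test. With values under background raised to it, the fall of CG14565 was at least 0.17, or 1.12-fold. By position, CG13679 differed by 0.49 outside and Nplp4 by 0.08 within 1g-rot, and CG14565 was under background on every outside array. CG31041 and Zasp67 did not pass within 1g-rot alone (0.48 and −0.35). These genes were chosen for this pattern, no interaction passed, and the values are a description. The call of CG13679 was lost on leaving out replicate 1 of any of the 4 groups except the 20 d outside one, or replicate 2 of the outside arrays at either age.

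The same ages were also sampled at 2g on the centrifuge, with 4 arrays each. These arrays did not enter the 1g differences themselves. They did enter the estimate of the spread and the choice of probe set per gene, so the tests at 1g and 2g are not independent. At 2g, 1577 genes (13.2%) were higher and 1398 (11.7%) lower at 20 d. Of the rises at 1g, 1145 also passed at 2g, which was 70.5% of the 1g list and 72.6% of the 2g list. Of the falls, 1091 passed in both, which was 46.3% of the 1g list and 78.0% of the 2g list. Only 4 of the genes higher at 1g passed as lower at 2g, and 13 of those lower at 1g passed as higher. Across the 11982 genes the age differences at 1g and at 2g had a Pearson r of 0.866, against 0.863 between the 2 positions at 1g. The former rests on 4 arrays per age on each side and the latter on 2, so the values do not weigh gravity against position. These are correlations across genes, which are not independent replicates, on arrays of one platform and processing.

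The leading groups shifted at 2g much as at 1g. AttD differed by 5.8, LysX by 5.02, fln by −4.51, Nplp3 by −5.38 and mag by −4.36. Of the 54 oxidative phosphorylation genes 51 fell at 2g as well, with a median of −0.66 (−0.71 at 1g), and the muscle median was −0.83 (−0.97 at 1g). The ovary lists had smaller medians at 2g, −0.66 against −0.92 for the oocyte and −1.07 against −1.97 for the early eggshell, a difference between lists that was not tested.

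**Figure D5:**
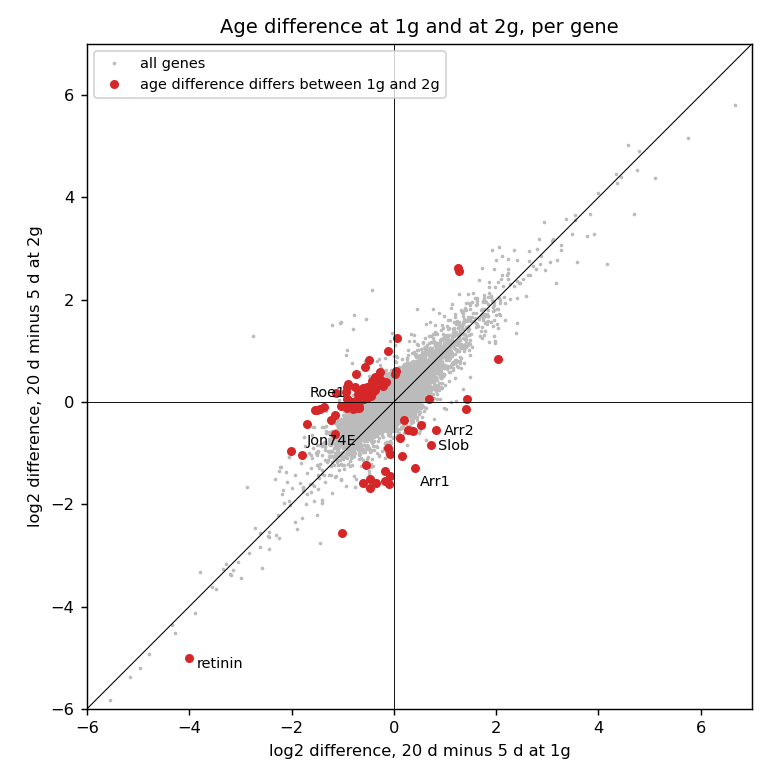
Age difference (20 d minus 5 d, log2) of each of 11982 genes at 1g (horizontal) and at 2g (vertical), with the 91 genes whose age difference itself differed between the gravity levels in red. Most genes lie along the diagonal (r = 0.866), including the largest rises and falls, and the red genes lie off it.

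The difference between the age differences was tested by an interaction of age with gravity. All 2g flies were on the centrifuge, whereas the 1g side averages the 1g-rot and outside groups. The interaction therefore holds position as well as gravity, which cannot be told apart in it. The difference between 3′ and 5′ control probe sets of eIF-4a also ran along it. That difference was lower at 20 d at 1g (0.62 to 0.81 against 1.0 to 1.2) but not at 2g (0.99 to 1.26 against 1.0 to 1.3). Its part in the interaction was not tested. The interaction passed for 121 probe sets, 80 with a higher value at 2g and 41 with a lower one, and 2170 had an unadjusted p under 0.05. After a repeated quantile normalization the split was 53 and 50. By gene, 91 passed (0.759%). Of these, 42 were called at 1g only, 19 at 2g only, 16 in both with opposite signs and 14 in both with the same sign. The count ranged from 43 to 131 probe sets on leaving out single arrays, and it was 62 or 43 without either 5 d outside array, 55 without the 5 d 1g-rot replicate 1 and 44 without the 20 d outside replicate 1.

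Roe1, a nucleotide exchange factor of the mitochondrial Hsp70, read 9.92, 9.69, 9.62 and 9.86 at 5 d and 8.09, 8.29, 8.17 and 8.38 at 20 d at 1g. At 2g, it stayed at 9.44, 9.52, 9.33 and 9.69 and then 9.37, 9.41, 9.33 and 9.24. The fall of 1.54 thus had no counterpart at 2g (−0.16), and the interaction was 1.38 ± 0.14 (adjusted p = 0.00121). CG13067 fell in both but further at 1g (−2.02 against −0.96). CG12065 and CG32024 fell at 1g (−0.75 and −0.56) and rose at 2g (0.54 and 0.69), and the call of CG32024 was lost within the outside arrays.

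Of the 20 photoreceptor genes 7 passed the interaction, and of the 29 neuronal genes 2. Arr1, the second arrestin of the photoreceptors, read 10.67, 10.59, 11.11 and 10.94 at 5 d and 11.42, 11.2, 11.23 and 11.08 at 20 d at 1g, but 10.74, 10.88, 10.96 and 10.76 and then 9.33, 9.71, 9.2 and 9.94 at 2g. Its small rise at 1g (0.41, adjusted p = 0.0378) had ages that overlapped and was lost on leaving out any array except the 20 d 1g-rot replicate 2, so that the contrast lay mainly in the fall of 1.29 at 2g (interaction −1.7 ± 0.19, adjusted p = 0.00206). Arr2 rose by 0.83 at 1g and fell by 0.54 at 2g, and Slob, which binds a potassium channel, rose by 0.72 and fell by 0.84. The probe set of Slob may hybridize with related transcripts, and its rise at 1g did not pass within the outside arrays alone (0.57). The photoreceptor list had a median of −0.02 at 1g and −0.65 at 2g, where 13 of its 20 genes fell, and its median level at 20 d was 7.3 to 7.95 at 1g and 6.72 to 6.94 at 2g. Retinin, chp, a surface protein of photoreceptors, and Gad1 fell at both and further at 2g (−5.0, −1.59 and −1.23 against −4.0, −0.61 and −0.55). The falls of chp and Gad1 at 1g did not pass within 1g-rot alone (−0.49 and −0.26).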

How the data were processed

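RNA of adult females was hybridized to Affymetrix Drosophila 2.0 arrays after extraction with Trizol. The authors deposited 1 table of log2 intensities, normalized over all 50 arrays by RMA as the submitters' processing notes name it, together with limma, and given to 2 decimals. RMA brings the arrays to a common distribution, so that a global shift would not be visible. The number of arrays limits the precision. The paper's text was not used as a source of methods for these arrays.

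The deposited values were used as they stood. After removal of 183 control probe sets from 18952, 18769 probe sets were fitted with limma 3.58.1 (R 4.3.3), with 6 group means over the 16 arrays of the centrifuge experiment (residual degrees of freedom 10, prior 5.25). The age contrast was the mean of both 1g groups at 20 d minus that at 5 d. P-values were adjusted by Benjamini-Hochberg over all probe sets, with a threshold of 0.05, and the script was tested on simulated data. Genes were named through the platform annotation, which gave 13647 probe sets a single symbol, 402 several and 4720 none. By gene identifier, 13544 symbols were matched to RefSeq. Each of 11982 genes was represented by its probe set with the highest mean over the 16 arrays.

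The genes named were the 15 largest rises and 15 largest falls that passed without overlap between the ages, the 6 members of each list and the 6 genes of each interaction with the smallest p, and smp-30, regucalcin, Fst and the yolk genes. COX7A and grk were chosen after their values were seen. The members and lists were chosen with earlier results of these data known, so that no list count is independent support, and the kinase gene Dsor1 and the complex I gene ND-MNLL were removed, after values were seen, from lists that had caught them by name. Alternatives were repeated quantile normalization, median centring, a filter on dim probe sets, an intensity trend, only the 1g arrays, a replicate block, each position alone and each array left out.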

Additional observations from a re-analysis of the deposited data

Results flagged for a closer look

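Among 368 groups of 4 arrays (each named gene at each age), 11 held an array that lay far from the others by Dixon's criterion, where chance gives about 1 in 20. At 5 d, the outside replicate 1 was high for AttD (7.95) and PGRP-SB1 (9.77), and the 1g-rot replicate 2 was high for CG14499 (7.67). At 20 d, the 1g-rot replicate 2 was low for LysX (10.94), Actn (9.02) and vri (8.58), the 1g-rot replicate 1 was high for ND-18 (10.05), the outside replicate 1 was high for AstC (9.87), Fer1HCH (13.76) and CG14565 (3.94, under background), and the outside replicate 2 was low for kappaTry (9.37). None of these single values made the ages of its gene overlap, with the exception of CG14565.

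The age difference itself differed between 2g and 1g for 121 probe sets. Among the genes named, the value at 2g minus that at 1g was positive for Roe1 (1.38), CG31041 (1.35), CG12065 (1.29), CG32024 (1.25), CG13067 (1.06), stau (0.81), Jon74E (0.76) and ATPsynCF6 (0.54). ATPsynCF6, a coupling factor of ATP synthase, was the single one of 54 oxidative phosphorylation genes with such a difference, having fallen by 1.16 at 1g and by 0.62 at 2g. The value was negative for Arr1 (−1.7), Slob (−1.57), Arr2 (−1.37), retinin (−0.99), chp (−0.97) and Gad1 (−0.68). CG31041, which rose by 1.26 at 1g and by 2.61 at 2g, was also among the 6 genes with the smallest p for rotation.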

How the results depend on the processing

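The 4851 probe sets called at 1g (2054 higher, 2797 lower) became 2271 and 2624 after repeated quantile normalization, 1824 and 2878 after median centring, 2117 and 2876 of 14401 after the filter on dim probe sets, 2059 and 2753 with an intensity trend, and 1918 and 2571 from the 1g arrays alone. A difference of at least 1 left 768, and the outside arrays alone gave 2086. With single arrays left out, the count ran from 3717 to 4903 at 1g, 2674 to 3511 at 2g, 43 to 131 for the interaction with gravity and 0 to 5 for that with rotation (2 without the 20 d outside replicate 2, 5 without the 20 d 1g-rot replicate 2). The gravity count was also 78, 76 and 57 without the 20 d 2g replicates 1, 2 and 3 and 59 and 57 without the 5 d 2g replicates 1 and 3. Of the 1060 list genes 443 were called, against 380 to 448 with an array left out and 277 within the outside arrays. For the genes of the naming rule the range was 239 to 261 around 258. The sign turned for the median of the Toll and Imd list (−0.02) and for the called genes CG13679 (0.49) and CG14565 (0.1) within the outside arrays and for Nplp4 (0.08) within 1g-rot. Over 184 named genes and all alternatives, 75 of 3128 results lost the call, 16 gained it and 10 turned sign in 6 genes, the others being COX7A, Yp2 and TwdlB (0.73 within the outside arrays), which were not called. Medians of 15 lists, most of them near 0, turned sign in 46 of 918 results, among them neuronal (0.07), photoreceptor (0.1) and maltases and amylases (0.41) within 1g-rot and apoptosis (−0.13) with the dim filter. Medians of the TCA cycle (−0.53 within 1g-rot, −0.88 outside) and of glycolysis, glycogen and gluconeogenesis (−0.14 and −0.4) kept their sign but differed by position. The causes were not tested. Deviations of same-numbered arrays correlated unevenly between 1g groups, from 0.00148 to 0.281, with the highest value between the outside groups of both ages. What same-numbered arrays share, if anything, cannot be told from the labels. With the replicate block, 2019 probe sets were higher and 2596 lower at 1g, Cp19, Cp36 and Fst gained the call, and tim and CG13679 lost it. For the gravity interaction, centring gave 72 and 43, the dim filter 90 and 48 and the trend 72 and 40.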

Other observations

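Chromosome position was examined after the values had been seen. On the X chromosome, 181 of 1873 genes were higher (9.66%) and 490 lower (26.2%) at 20 d at 1g, with a median of −0.06. On the other arms 13.5% to 15.7% were higher and 17.1% to 19.6% lower. With each gene's level taken relative to its mean over the 16 arrays, the median of X-linked genes minus that of autosomal genes was 0.0256 ± 0.0131 at 5 d and −0.0466 ± 0.00282 at 20 d (SD, n = 4), a difference of −0.0722 with all 4 older arrays below all young ones. At 2g the difference was −0.0207, with 11.9% of X-linked genes higher and 12.9% lower. Of the 65 genes whose age difference was higher at 2g than at 1g, 29 (44.6%) were X-linked, against 15.6% of all genes. The shift is small beside the spread of single genes, and the 3′ to 5′ values that separated the ages at 1g and not at 2g moved with it. Their part in the shift was not tested.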
